A study of Mus musculus with 2 samples.

Results

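The cells described here are cycling thymocytes rich in replication histone RNA, 198 of the 3072 thymocytes kept from 2 single-cell libraries. Thymocytes are the developing T cells of the thymus. The mutant library came from thymocytes homozygous for mutations of GATA sites 1 and 2 (GS1+2) of NMe, and the wild type library from thymocytes with NMe intact. NMe is a stretch of regulatory DNA far downstream of Myc through which NOTCH1 drives that growth gene, and its GATA sites can be read by GATA3. Each genotype had 1 library of 5000 loaded cells, and the number of mice and their ages are not given in the sources used here. A difference below is therefore one between 2 libraries, with no replicate behind it and no test. Ranges called intervals are at the 95% level and hold sampling of molecules or cells alone.

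The cells were chosen on 2 sums of unique molecular identifiers (UMIs, counts of single captured RNA molecules) per cell. H is the sum of Hist1h2ap, Hist1h2af, Hist1h2ak and Esco2, and M is the sum of 6 mitotic genes, Ube2c, Cdc20, Ccnb1, Cenpf, Plk1 and Cenpa. A histone-rich cell had an H of at least 10 and an M below 8. Cells with a Ptcra UMI and no Rag1 or Rag2 UMI were set aside, 27 in the mutant and 24 in the wild type library among those that met both limits. The 63 mutant and 135 wild type cells chosen in this way are called histone-rich cells. Their levels of the chosen genes are a description of the choice and not a finding.

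Replication histones are made in bulk during S phase, when new DNA must be packed into nucleosomes. Their genes lie in clusters, lack introns, and give messages that end in a conserved stem-loop rather than a poly(A) tail. The stem-loop is bound by SLBP, which takes part in the processing, translation and decay of these messages. A library primed on poly(A) therefore sees only the histone messages that carry a tail or an internal run of A. In the thymus, bursts of division follow beta-selection, when precursors that have made a T cell receptor beta chain expand on their way to the CD4 CD8 double-positive stage.

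Hist1h2ap, which encodes a histone H2A, supplied nearly all of H. It gave 97.2% of the H UMIs in mutant and 97.0% in wild type histone-rich cells. Its gene lies on the minus strand of mm10 chromosome 13, positions 21833026 to 21833507, in the GENCODE annotation. Its annotated transcript has 482 bases and ends 3 bases after the stem-loop. The stem-loops of 4 histone messages measured in these cells are shown because they are the shared 3′ mark of the family. Capitals mark the 2 arms of the stem and lower case the loop.
Hist1h2ap: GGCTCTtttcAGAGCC
Hist1h2bj: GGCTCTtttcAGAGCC
Hist1h3c: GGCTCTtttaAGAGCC
Hist1h4b: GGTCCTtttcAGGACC
Of 67 clustered histone genes with a protein coding transcript in GENCODE, 46 held a sequence of this form, and 26 of these were annotated to run more than 50 bases past it.

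The copies of H2A are so alike that the authors' counting could have moved UMIs between them. The coding sequence of Hist1h2ap, 393 bases long, was 96.9% to 100% identical to those of 10 other clustered H2A genes, and Hist1h2ao had the same coding sequence. Of all windows of 98 bases in the Hist1h2ap transcript, 92.2% occurred in a transcript of another gene. The same share was 11.5% for Hist1h2ak and 65.6% for Hist1h2af. The level of a single H2A gene is therefore uncertain, and the summed level of the family is the safer value.

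The promoters of the 3 histone genes of H are shown because their RNAs define the cells. Each is 300 bases from RefSeq on GRCm38.p6, 250 before to 50 after the annotated start, with every CCAAT or TATAAA (either strand) in capitals. The positions are chr13:21833426-21833725 on the minus strand for Hist1h2ap (RefSeq H2ac24), chr13:23533625-23533924 on the plus strand for Hist1h2af (H2ac10) and chr13:21753863-21754162 on the minus strand for Hist1h2ak (H2ac15).
Hist1h2ap: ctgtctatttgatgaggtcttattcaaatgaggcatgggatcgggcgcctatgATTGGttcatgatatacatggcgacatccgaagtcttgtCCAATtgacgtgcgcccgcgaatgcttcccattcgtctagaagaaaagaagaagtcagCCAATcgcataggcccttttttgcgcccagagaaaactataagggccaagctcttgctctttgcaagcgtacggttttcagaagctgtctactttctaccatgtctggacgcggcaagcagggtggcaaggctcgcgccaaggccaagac
Hist1h2af: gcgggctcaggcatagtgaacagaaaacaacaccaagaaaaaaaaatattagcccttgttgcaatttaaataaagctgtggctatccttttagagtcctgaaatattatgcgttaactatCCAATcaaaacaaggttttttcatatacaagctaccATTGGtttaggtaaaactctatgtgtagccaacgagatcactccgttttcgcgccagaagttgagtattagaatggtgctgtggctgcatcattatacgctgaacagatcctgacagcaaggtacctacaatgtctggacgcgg
Hist1h2ak: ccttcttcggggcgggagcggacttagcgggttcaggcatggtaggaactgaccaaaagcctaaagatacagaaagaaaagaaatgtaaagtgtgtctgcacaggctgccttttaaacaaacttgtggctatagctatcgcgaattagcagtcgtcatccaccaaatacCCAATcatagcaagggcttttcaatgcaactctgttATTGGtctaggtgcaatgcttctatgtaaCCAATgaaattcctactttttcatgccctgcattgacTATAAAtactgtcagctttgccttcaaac
CCAAT, the letters read by the factor NF-Y, occurred 3, 2 and 3 times in these windows. It was found in 53 of 62 promoters of clustered histone genes (85.5%), against 37.7% of 27025 promoters of all genes. All 18 H2A and all 16 H2B promoters held it, and 3 of 12 H4 promoters did. The octamer ATTTGCAT, the letters read by OCT1, was found in 7 of 16 H2B and 7 of 18 H2A promoters, against 1.74% of all promoters, and in none of the 3 windows above. TATAAA was found in 56.5% of clustered histone promoters and 14.2% of all promoters. These matches are letters in a window, not binding sites. The start of Hist1h2ap lies 236 bases from that of Hist1h2br, an H2B gene that runs the other way from the same stretch of DNA.

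The histone-rich cells were 3.64% of kept cells in the mutant library (63 of 1731, Clopper-Pearson interval 2.81 to 4.63) and 10.1% in the wild type library (135 of 1341, 8.51 to 11.8). The difference was -6.43 percentage points (Newcombe interval -8.32 to -4.63). Among all kept cells with an H of at least 10 their share was nearly equal, 29.2% in mutant (63 of 216) and 30.2% in wild type (135 of 447). G2/M-high cells, defined by an M of at least 8, were also fewer, 131 mutant cells (7.57%) and 339 wild type cells (25.3%). MCM-high cells, with an H below 10, an M below 8 and at least 6 UMIs of the helicase genes Mcm2 to Mcm7, were 43 mutant cells (2.48%) and 40 wild type cells (2.98%).

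Depth differed between the libraries and bears on a rule set in raw UMIs. Histone-rich cells had a median of 3862 UMIs in mutant (1465 to 18024) and 5623 in wild type (1969 to 22261), with 326227 and 934380 UMIs in total. Kept cells had medians of 2596 and 3329. Of the highest 5% of Scrublet doublet scores in each library, 12 fell on mutant and 10 on wild type histone-rich cells (19.0% and 7.41% of them). The libraries shared 1 cell barcode, which was no histone-rich cell in either. With H taken per 10000 UMIs (at least 20) or after thinning each cell to 2000 UMIs, the share remained lower in the mutant library.

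**Figure D1:**
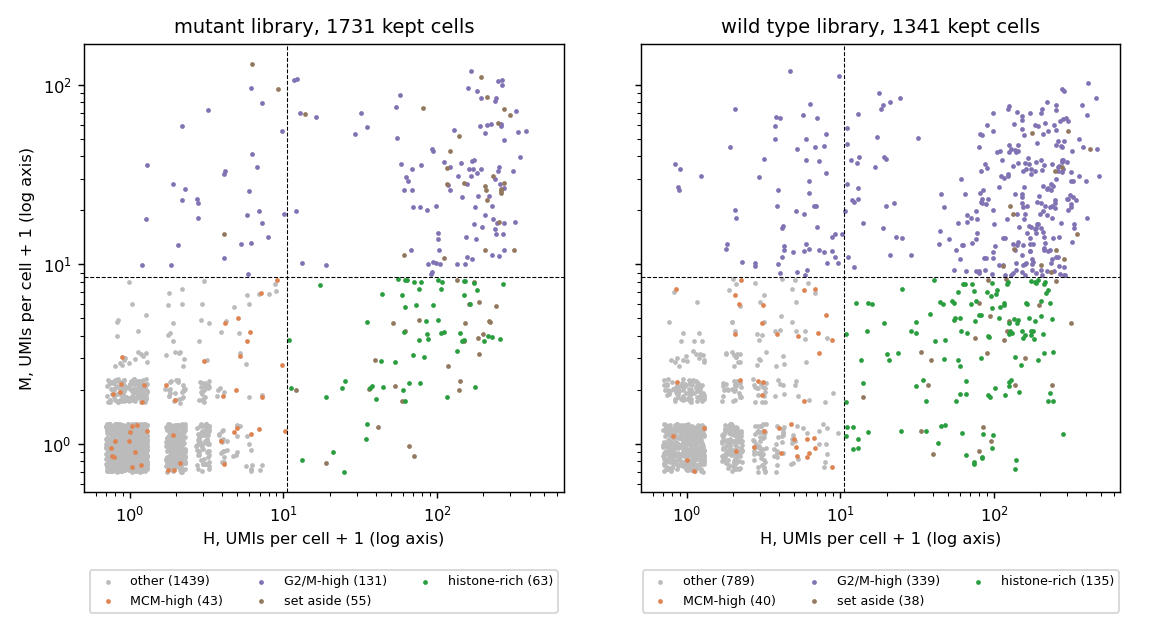
Each point is a kept cell, with H on the horizontal axis and M on the vertical axis, both as UMIs per cell plus 1 on log axes with a small random offset, and dashed lines at the limits of the rule. In both libraries most cells had an H of 0 to 3 or of 50 and more, and the 63 mutant and 135 wild type histone-rich cells continue upward into the G2/M-high cells.

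H had few cells near its limit. In the mutant library 10 kept cells had an H of 7 to 9 and 10 had one of 10 to 14, against 129 with 100 or more. In the wild type library these numbers were 25, 30 and 273. Histone-rich cells just inside the limit, with an H of 10 to 12, held Rrm2 at 1343 CPM in 3 mutant cells and 707 CPM in 9 wild type cells, where CPM is UMIs per 1000000 UMIs summed over cells. Cells just outside it, with an H of 7 to 9 and an M below 8, held Rrm2 at 972 CPM in 4 mutant cells and 668 CPM in 11 wild type cells. Top2a was at 584 CPM in mutant and 273 CPM in wild type inside this limit, and at 243 and 167 CPM outside it. At the limit of M the genes did not all behave alike. Values were close for Top2a, at 1105 CPM at an M of 6 to 7 (18 cells) and 1078 CPM at an M of 8 to 9 (10 cells) in mutant, and 876 CPM (22 cells) and 939 CPM (34 cells) in wild type. Rrm2 was at 808 CPM inside and 1518 CPM outside in mutant, and at 966 and 1214 CPM in wild type. Pcna was at 747 and 784 CPM in mutant, and at 653 and 1022 CPM in wild type.

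Of the 5 marker genes given for these cells, 4 make up H, so their presence follows from the rule. The remaining one, Rrm2, the small subunit of ribonucleotide reductase that makes deoxynucleotides, had a UMI in 93.7% of mutant and 94.8% of wild type histone-rich cells. Hist1h2ap was at 16838 CPM in mutant and 13727 CPM in wild type histone-rich cells, with 8 to 261 UMIs per cell (median 74) in mutant and 8 to 271 (median 81) in wild type. It was at 306 CPM in mutant and 536 CPM in wild type MCM-high cells. In G2/M-high cells it was at 14838 CPM in mutant and 16022 CPM in wild type, so high Hist1h2ap alone did not set the histone-rich cells apart from dividing cells. The T cell genes Cd3d, Cd3e or Cd3g had a UMI in 62 of 63 mutant and 135 of 135 wild type histone-rich cells. Of the marker lists of other lineages, 3 were near 0. The 4 B cell markers summed to 15.3 CPM in mutant and 12.8 CPM in wild type, the 8 macrophage and dendritic markers to 6.13 and 5.35 CPM, and the 4 erythroid markers to 6.13 and 7.49 CPM. Of these markers 3 of 4, 6 of 8 and 2 of 4 were at 0 in mutant, and 2 of 4, 4 of 8 and 2 of 4 in wild type. The 6 markers of NK and innate-like cells were not near 0, at 340 CPM in mutant and 243 CPM in wild type, with at least 5 UMIs in 7 mutant and 13 wild type cells. Most of this was Gzma, a granzyme gene, at 282 CPM in mutant and 226 CPM in wild type, while Xcl1 and Klrb1c were at 0 in both. The part of such cells in the results was not tested.

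Set against MCM-high cells, histone-rich cells had more RNA of histones and of mitosis genes. These contrasts follow from H, M and the MCM sum that divided the cells, so they describe the cells and test nothing. Over 2581 genes measured in both libraries, 1.74% were at least 2-fold higher in histone-rich cells in both libraries and 0.194% at least 2-fold lower. The clustered histones outside the rule were higher in 7 of 7 measured genes in both libraries, 6 of them at least 2-fold, with median log2 ratios of 2.39 in mutant and 2.37 in wild type, where the medians of all genes were 0.13 and -0.01. Mitosis genes were higher in 33 of 35, 17 at least 2-fold. Of all genes 34.3% were higher in both libraries. Nusap1, which binds spindle microtubules, was at 435 CPM in mutant histone-rich cells and 23.3 CPM in mutant MCM-high cells, and at 281 CPM in wild type histone-rich cells and 25.9 CPM in wild type MCM-high cells. The linker histone gene Hist1h1b was at 205 CPM against 6.65 CPM in mutant and 136 CPM against 8.64 CPM in wild type. Aurkb, the kinase of the chromosomal passenger complex, was at 159 CPM against 6.65 CPM in mutant and 95.3 CPM against 12.96 CPM in wild type. Ltb, which encodes lymphotoxin beta, was among the lowest, at 85.8 CPM against 176 CPM in mutant and 78.1 CPM against 168 CPM in wild type.

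Set against G2/M-high cells, histone-rich cells had more RNA of the genes of S phase entry and DNA synthesis and less of mitosis genes. Of 2695 genes, 0.445% were at least 2-fold higher in both libraries and 1.71% at least 2-fold lower. Ung, the uracil-DNA glycosylase that removes uracil from new DNA, was at 79.7 CPM in mutant histone-rich cells and 8.496 CPM in mutant G2/M-high cells, and at 116 CPM in wild type histone-rich cells and 16.9 CPM in wild type G2/M-high cells. The cyclin E genes Ccne2 and Ccne1, the factor gene E2f1 and the licensing gene Cdc6 followed, with log2 ratios of at least 1.12 in both libraries. Genes of deoxynucleotide supply were higher in 15 of 16, replication fork and polymerase genes in 29 of 32, and ribosomal protein genes in 79 of 81. Of all genes 30.9% were higher and 44.1% lower in both libraries. Mitosis genes were lower in 46 of 49, 20 at least 2-fold, with medians of -0.84 in mutant and -1.06 in wild type. Ccnb2, a mitotic cyclin, was at 141 CPM in mutant histone-rich cells and 722 CPM in mutant G2/M-high cells, and at 129 CPM in wild type histone-rich cells and 585 CPM in wild type G2/M-high cells. The tubulin gene Tuba1c had the lowest ratio, -3.43 in mutant and -2.97 in wild type. The clustered histones outside the rule were somewhat lower in sum, with 1 of 10 higher and 6 of 10 lower in both libraries. They summed to 2204 CPM in mutant histone-rich cells and 2590 CPM in mutant G2/M-high cells, a log2 ratio of -0.23 (-0.35 to -0.11). In wild type the sums were 1441 and 1911 CPM, -0.41 (-0.49 to -0.32).

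**Figure D2:**
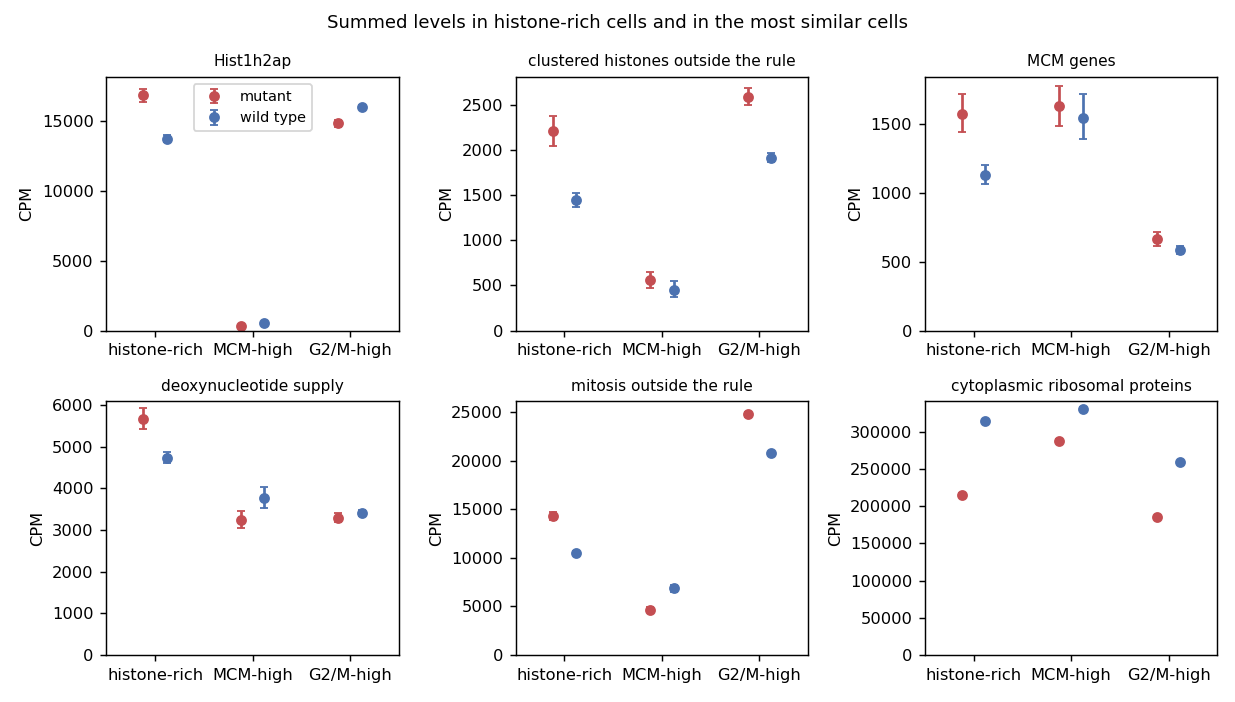
Summed level in CPM of Hist1h2ap and of 5 gene groups in histone-rich, MCM-high and G2/M-high cells, with exact Poisson intervals, mutant left of wild type in each pair. Hist1h2ap and the other histones were high in histone-rich and G2/M-high cells, deoxynucleotide supply genes were highest in histone-rich cells, and mitosis genes stood between the levels of the other cells.

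Histone-rich cells differed among themselves along the order of the cell cycle. In cells with an M of 0 to 1 the MCM genes summed to 1965 CPM in mutant (19 cells) and 1347 CPM in wild type (44 cells). In cells with an M of 5 to 7 they summed to 1021 CPM in mutant (22 cells) and 798 CPM in wild type (39 cells). Ung likewise was at 197 CPM in mutant and 143 CPM in wild type at an M of 0 to 1, and at 8.65 CPM (1 UMI) in mutant and 72.2 CPM in wild type at an M of 5 to 7. H2afx, a histone variant phosphorylated at DNA breaks, ran the other way. It was at 403 CPM in mutant and 418 CPM in wild type at an M of 0 to 1, and at 1021 and 776 CPM at an M of 5 to 7. The bins were cut on the rule's own sum, so this is a description.

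Levels also varied with H. In bins chosen after seeing the data, cells with an H of 10 to 49 held the mitosis genes outside the rule at 11189 CPM in mutant (18 cells) and 5872 CPM in wild type (38 cells). Cells with an H of 50 to 99 held them at 19239 CPM in mutant (22 cells) and 12077 CPM in wild type (41 cells). Cells with an H of 100 or more held them at 14129 CPM in mutant (23 cells) and 13070 CPM in wild type (56 cells). Ribosomal protein genes were at 246114 CPM in mutant and 362399 CPM in wild type at an H of 10 to 49, at 156863 and 302046 CPM at an H of 50 to 99, and at 221817 and 286123 CPM at an H of 100 or more. The mutant values thus had their extreme in the middle bin, while the wild type values ran in 1 direction. Across cells, H per 10000 UMIs and ribosomal protein UMIs per 10000 had a Pearson correlation of -0.63 in 63 mutant and -0.79 in 135 wild type cells, and H and mitosis genes one of 0.45 and 0.79. These points share each cell's total as a denominator.

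Genes of thymocyte stages differed between the libraries. A UMI of Cd8a or Cd8b1, the chains of the CD8 coreceptor, was present in 38 of 63 mutant cells (60.3%, 47.2 to 72.4) and 128 of 135 wild type cells (94.8%, 89.6 to 97.9). After thinning to 2000 UMIs, which left out 7 mutant cells and 1 wild type cell, the shares were 39.3% in mutant and 78.4% in wild type. In cells with at least 5 UMIs of B cell markers the unthinned share was 28.6% of 35 mutant cells (median 2404 UMIs) and 3 of 6 wild type cells (median 3021 UMIs). B cells should lack CD8, but these cells are no clean background. A UMI of Cd3d, Cd3e or Cd3g was present in 34.3% of the mutant and 5 of 6 of the wild type ones. After thinning the share with a Cd8 UMI was 26.9% of 26 mutant cells (11.6 to 47.8) and 2 of 6 wild type cells. The mutant interval spans the 39.3% of mutant histone-rich cells. An interval around 1 share that spans another does not compare the 2, so an excess of CD8 was not tested. A Cd8 UMI is therefore no proof of CD8 in a single mutant cell. Cd4 had a UMI in 12.7% of mutant and 43.0% of wild type histone-rich cells, 8.93% and 19.4% after thinning, and the B cell marker cells had one in 11.4% in mutant. After thinning that share was 3.85%, or 1 of 26 cells, and its interval (0.097 to 19.6) spans the 8.93% of the mutant histone-rich cells. An excess of Cd4 was likewise not tested. Rag1 or Rag2, the recombinase genes, had a UMI in 41.3% of mutant and 73.3% of wild type histone-rich cells, which the rule touched through the cells it set aside.

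Genes of the NOTCH pathway did not all differ the same way. Dtx1, a target of NOTCH signalling, had a UMI in 27.0% of mutant and 1.48% of wild type histone-rich cells, 14.3% and 0.75% after thinning. Hes1, a repressor induced by NOTCH, had one in 19.0% and 8.89%, 14.3% and 2.24% after thinning. Il2ra, the interleukin 2 receptor alpha chain of early CD4-CD8- cells, had one in 14.3% and 5.93%. In the mutant B cell marker cells these shares were 5.71%, 8.57% and 5.71%. Myc had a UMI in 6.35% of mutant and 20.7% of wild type histone-rich cells, 5.36% and 7.46% after thinning. Ptcra, the pre-T cell receptor alpha chain, had one in 20.6% and 37.8%. The rule set aside cells with a Ptcra UMI and no Rag1 or Rag2 UMI. Among cells within both limits these were 27 in mutant and 24 in wild type, beside 63 and 135 chosen cells. The Ptcra shares therefore follow in part from the rule and are no finding. Mki67, a protein of dividing cells, was near equal, with a UMI in 63.5% of mutant and 63.7% of wild type histone-rich cells.

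**Figure D3:**
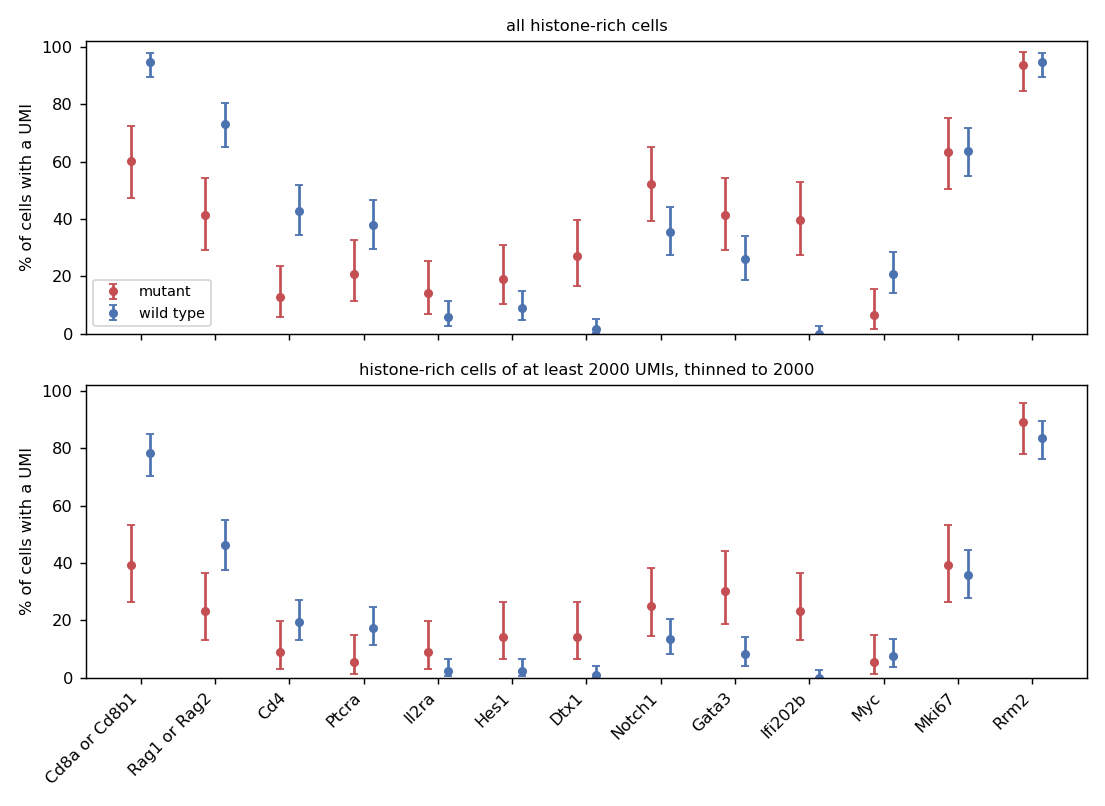
Share of histone-rich cells with at least 1 UMI of each gene or pair, with Clopper-Pearson intervals, mutant left of wild type, for all cells (top) and for cells thinned to 2000 UMIs (bottom). Cd8a or Cd8b1 and Rag1 or Rag2 were less often found in mutant cells, Dtx1, Gata3 and Ifi202b more often, and Mki67 and Rrm2 were close.

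The histone-rich cells could be split further, by genes chosen after seeing the data. Of 63 mutant cells, 7 had at least 8 UMIs of 4 genes of mature T cells (Ccr7, Klf2, S1pr1 and Igfbp4). Of the rest, 36 had a Cd8a or Cd8b1 UMI, 8 had an Il2ra UMI and no Cd8 UMI, and 12 had neither. The 36 are fewer than the 38 above because cells with mature genes that also held a Cd8 UMI are counted with the 7. Of 135 wild type cells the numbers were 0, 128, 2 and 5. The 0 of 135 allows a share of up to 2.70% (exact upper bound). The 7 mutant cells with mature genes had a median H of 86 and Hist1h2ap at 15638 CPM. This was close to the 15927 CPM of the 36 mutant cells with a Cd8 UMI. The 7 cells also held Cd52, a surface antigen of lymphocytes, at 3639 CPM, against 75.2 CPM in those 36 cells. They held 80.5% of the Vim UMIs of all mutant histone-rich cells. The 8 cells with Il2ra held Bcl2, an antagonist of cell death, at 592 CPM and Gata3 at 516 CPM. The 36 cells with a Cd8 UMI held them at 52.0 and 104 CPM.

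Between the libraries, 4.45% of 3076 genes were at least 2-fold higher in mutant histone-rich cells and 0.65% at least 2-fold lower. The median gene had a log2 ratio of 0.24, and list values are given relative to it. These counts and all list medians have 10 CPM added on both sides, while a ratio given with an interval has none added. A measured gene had at least 50 CPM in 1 library and 20 UMIs in all. The split depended on the scaling. The numbers of genes higher and lower were 137 and 20 per total UMIs, 47 and 60 with median-of-ratios scaling, which put the median gene at -0.04, and 107 and 92 per total UMIs without ribosomal protein, mitochondrial and histone genes, which put it at 0.04. The interferon-inducible gene Ifi202b had the highest ratio, with 65 UMIs in 25 mutant cells (199 CPM) and 0 UMIs in 135 wild type cells, at least 62.1-fold higher against a floor of 3 UMIs over the wild type cells. Ifi202b was not particular to histone-rich cells. It had a UMI in 46.5% of mutant and 0% of wild type MCM-high cells, and in 36.6% and 0.59% of G2/M-high cells. Its relative Ifi203 was at 162 CPM in mutant (53 UMIs) and 18.2 CPM in wild type (17 UMIs), a log2 ratio of 3.16 (2.35 to 4.04). Dtx1 was at 73.6 CPM in mutant (24 UMIs) and 2.14 CPM in wild type (2 UMIs), a ratio of 5.10 (3.09 to 8.23). In G2/M-high cells Dtx1 had a UMI in 35.9% of mutant and 2.36% of wild type cells. H1fx, a replication-independent linker histone, was at 264 CPM in mutant and 41.7 CPM in wild type, 2.66 (2.10 to 3.24).

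Others of the highest genes came largely from few cells, those with mature genes and those with Il2ra. These had median UMIs of 5807 and 6479, against 3806 in the 36 mutant cells with a Cd8 UMI. Whether they were single cells of other stages or doublets was not tested. The 7 cells with mature genes held 86.9% of the mutant UMIs of Tesc, 78.7% of Ifi27l2a and 59.0% of H2-Q7, and the 8 cells with Il2ra held 62.0% of those of Bcl2. Klf2, Ccr7 and Igfbp4 were above 90% in the first group, which was chosen on them, and Il2ra was at 98% in the second. In the cells with a Cd8 UMI and no mature genes alone (36 mutant, 128 wild type), 6.73% of 3179 genes were at least 2-fold higher and 1.16% at least 2-fold lower. Of the 12 highest genes 5 were still at least 2-fold higher there, Ifi202b (21 UMIs in mutant, 0 in wild type), Dtx1 (14 and 1), Ifi203 (23 and 15), H1fx (63 and 38) and H2-Q7 (10 and 9).

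The lowest genes were Phlda1, Cd8a and Epsti1. Phlda1, a feedback gene of growth factor signalling, was at 18.4 CPM in mutant (6 UMIs) and 110 CPM in wild type (103 UMIs), a log2 ratio of -2.58 (-4.06 to -1.41). Cd8a was at 126 CPM in mutant and 538 CPM in wild type, -2.10 (-2.60 to -1.64), and Cd8b1 at 297 and 589 CPM, -0.99 (-1.31 to -0.67). In the cells with a Cd8 UMI alone, Cd8a was still at 208 CPM in mutant and 570 CPM in wild type, while Cd8b1 was at 497 and 623 CPM with a log2 ratio of -0.32 (-0.67 to 0.01). Epsti1, an interferon-inducible gene, was at 12.3 CPM in mutant and 72.8 CPM in wild type, -2.57 (-4.49 to -1.15), opposite to Ifi202b. Of the 12 lowest genes 8 were at least 2-fold lower in the cells with a Cd8 UMI alone. Myc had 8 UMIs in 4 mutant cells and 49 UMIs in 28 wild type cells, -1.10 (-2.39 to -0.01), and 1 mutant cell held 50% of its mutant UMIs. The mutant cells with Il2ra and no Cd8 UMI held 62.5% of them. In the cells with a Cd8 UMI alone Myc had 1 UMI in mutant and 42 in wild type, -3.04 (-8.38 to -0.48).

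The 65 clustered histone genes that did not choose the cells summed to 2204 CPM in mutant and 1441 CPM in wild type histone-rich cells. This sum, over all 65 without a filter, gave a log2 ratio of 0.61 (0.48 to 0.75). The genes one by one say less. Of 15 measured, 12 had a higher level in mutant, where 72.2% of all measured genes did, and their median was 0.26 above the median gene. Of the 15, 6 reached 50 CPM in mutant alone and 2 in wild type alone, so the filter itself favours a difference in them. Of the 7 that reached it in both, 6 were higher in mutant. The intervals of single genes were not counted over all measured genes, so those below are given as values alone. Hist1h2ag was at 162 CPM in mutant and 59.9 CPM in wild type, 1.44 (0.87 to 2.01). Hist1h2bj was at 123 and 49.2 CPM, 1.32 (0.67 to 1.96). Hist1h3c was at 76.6 and 21.4 CPM, 1.84 (0.93 to 2.77). Hist1h1e, a linker histone, was at 95.03 CPM in mutant and 101 CPM in wild type, with an interval from -0.72 to 0.52. Hist1h4i was at 33.7 CPM in mutant and 56.7 CPM in wild type, with an interval from -1.84 to 0.20. Hist1h2ap, which chose the cells, was 0.29 higher (0.25 to 0.34), close to the median gene. In all, clustered histones took 1.94% of UMIs in mutant and 1.55% in wild type histone-rich cells.

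**Figure D4:**
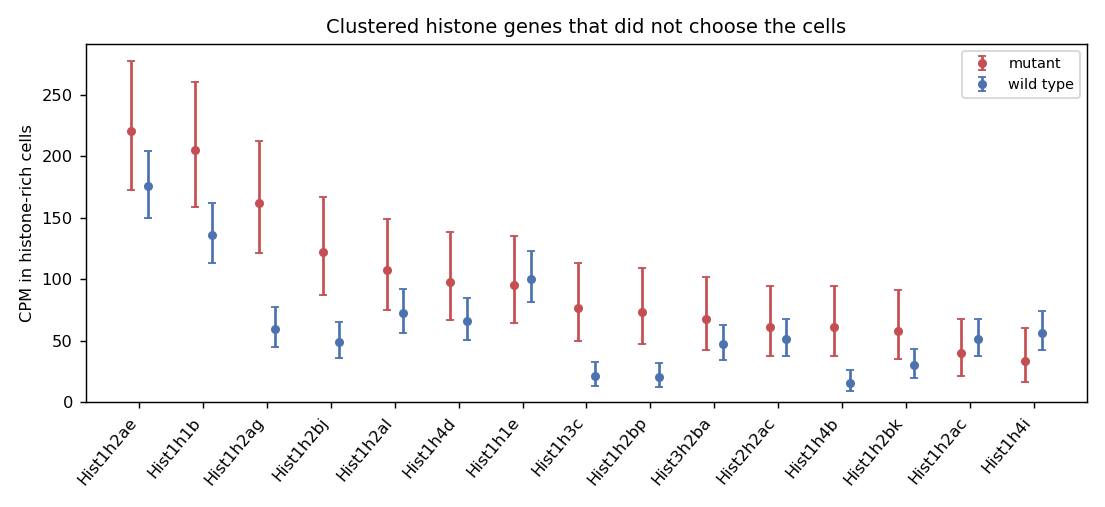
Level in CPM of the 15 measured clustered histone genes outside the rule in histone-rich cells, with exact Poisson intervals, mutant left of wild type, ordered by mutant level. Of the 15 genes 12 were higher in mutant, where 72.2% of all measured genes were. Of the 15, 6 reached 50 CPM in mutant alone and 2 in wild type alone, so the filter itself favours a difference in them.

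All 81 ribosomal protein genes measured were lower in mutant histone-rich cells, where 856 of all 3076 measured genes were. The median of the ribosomal protein genes was -0.77 relative to the median gene. They summed to 215473 CPM in mutant and 314303 CPM in wild type. Per cell their share had a median of 1950 UMIs per 10000 in mutant (761 to 3545) and 2856 in wild type (990 to 4811), so the libraries overlapped. Among the cells with a Cd8 UMI alone 80 of 81 were lower, where 810 of all 3179 measured genes were. Their median there was -0.93 relative to that comparison's own median gene. Since this group takes so many of the UMIs, its own level moves every other CPM. In MCM-high cells it summed to 287821 CPM in mutant and 330968 CPM in wild type, and in G2/M-high cells to 185862 and 260003 CPM.

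Genes around histone synthesis stood closer to the median gene. Slbp, the stem-loop binding protein, was at 864 CPM in mutant and 652 CPM in wild type, 0.41 (0.20 to 0.61). The 19 measured genes of histone RNA processing and chaperoning had a median of 0.16 above the median gene, with none at least 2-fold apart. Origin licensing genes were at 0.15 above it and deoxynucleotide supply genes at 0.04, while replication fork and polymerase genes were 0.10 below it. Mitosis genes were higher in 37 of 38, where 72.2% of all genes were, at a median of 0.28 above it. MYC-activated growth genes were lower in 18 of 31, at 0.33 below it, and Gnl3, a nucleolar GTPase, was the lowest of them at 55.2 CPM in mutant and 133 CPM in wild type. CD3 and receptor signalling genes were higher in 14 of 14, where 72.2% of all genes were, at 0.28 above it, though 5 of these reached 50 CPM in mutant alone. In the cells with a Cd8 UMI alone their median was 0.089 above that comparison's own median gene, with 9 of 14 above it. Over all histone-rich cells the median of the 8 measured NOTCH receptors and targets was 0.99 above the median gene. Of these, 3 (Dtx1, Hes1 and Il2ra) reached 50 CPM only in mutant, where they were high. This list median was -0.053 for genes of at least 200 CPM and -0.11 for the 5 measured in the cells with a Cd8 UMI alone. Of these 5, 2 were at least 2-fold higher in mutant, where 6.73% of all measured genes were, and 1 was lower. Notch1 in those cells was at 197 CPM in mutant and 88.3 CPM in wild type, 1.15 (0.53 to 1.75). The summed level of all 17 listed genes in those cells had a log2 ratio of 0.41 (0.26 to 0.56), where the median gene was at 0.30. Relative to that median gene the interval of the sum was -0.037 to 0.27, which spans 0. Lef1, a factor of early T cell development, was at 435 CPM in mutant and 124 CPM in wild type, 1.81 (1.45 to 2.18), and Gata3 at 190 and 53.5 CPM, 1.83 (1.27 to 2.40). Lef1 in the cells with a Cd8 UMI alone was at 434 CPM in mutant and 121 CPM in wild type. Gata3 fell closer to the median gene there, which was at 0.30. It was at 104 CPM in mutant and 54.4 CPM in wild type, 0.94 (0.07 to 1.75). The 8 mutant cells with Il2ra and no Cd8 UMI held 43.5% of the mutant Gata3 UMIs.

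**Figure D5:**
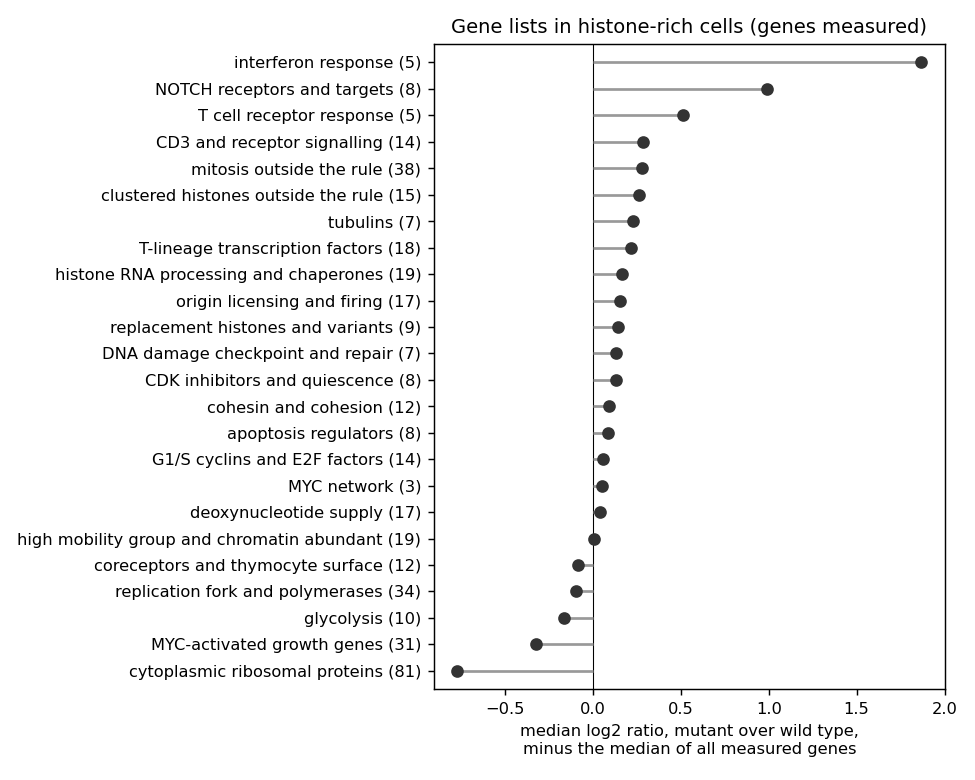
Median log2 ratio of each gene list with at least 3 measured genes in histone-rich cells, mutant over wild type, minus the median of all measured genes, with the number of genes measured in brackets. Ribosomal protein genes lie lowest at -0.77, and the interferon and NOTCH lists, of 5 and 8 genes, highest. The filter favours a difference in both lists. Of the 5 interferon genes, 2 reached 50 CPM in both libraries, 2 in mutant alone and 1 in wild type alone. Of the 8 NOTCH genes, 3 reached it in mutant alone. The NOTCH value turns to -0.11 in the cells with a Cd8 UMI alone and to -0.053 for genes of at least 200 CPM, and the interferon value falls to 0.38 in the cells with a Cd8 UMI alone.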

How the data were processed

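The deposited UMI counts per gene and barcode were made by the authors with Cell Ranger on mm10, per the submitters' processing notes; the version is not given in the sources used here. Libraries were 10x 3′ v2, per the labels' protocols. Barcodes with at least 400 genes and at most 10% mitochondrial UMIs were kept. Raw counts were summed over cells per library and divided by total UMIs (CPM). Poisson, conditional and Clopper-Pearson intervals (scipy 1.17.1) cover counting error only. No test was made, since each genotype had 1 library. Doublets were scored with Scrublet in scanpy 1.11.5 and left in. Interval and fold code was checked on simulated counts.

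The cells, gene lists and rules were chosen with earlier results of these data known. Named genes were the 12 highest and 12 lowest between libraries and the 8 highest and 8 lowest against each other cell class. Genes of the rule, ribosomal protein, mitochondrial and sex-linked genes and any with over 50% of UMIs in 1 cell were not eligible. The 2 extremes of each list, all clustered histones and a short list of stage genes could also be named. Thinning drew 2000 UMIs per cell.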

Additional observations from a re-analysis of the deposited data

How the results depend on the processing

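No paired analysis was possible because each genotype had 1 library. The share of histone-rich cells stayed lower in mutant under all settings run, and the difference was -21.0 points with no limit on M. The share of cells with a Cd8 UMI differed by -20.1 points there, against -34.5. The histone log2 ratio of 0.61 was 0.48 with H at least 20 per 10000 UMIs, 0.34 with median-of-ratios scaling, 0.41 without ribosomal protein, mitochondrial and histone genes in the total, and 0.75 in cells with a Cd8 UMI. Of 26 lists, 20 lay above the median gene, and 13 after thinning to 3000 UMIs. Genes at least 2-fold higher numbered 137, but 47 with median-of-ratios scaling, 214 with 1 CPM added, 31 with 50 CPM added, 14 at 200 CPM, 214 in cells with a Cd8 UMI and 82 at a mean of 50 CPM. Genes at least 2-fold lower numbered 20, but 32 with M below 5, 60 with median-of-ratios scaling, 92 with the reduced total, 4 with 50 CPM added and at 200 CPM, 70 at 20 CPM and after thinning, 37 in cells with a Cd8 UMI and 11 at a mean of 50 CPM. Point values turned negative for Ccr7 (-0.090), Igfbp4 (-0.36) and Il2ra (-0.77) in cells with a Cd8 UMI, and for Ccr7 (-0.37) without the cells with mature genes. In cells with a Cd8 UMI each of these genes had 1 mutant UMI, and all these intervals held negative and positive values. Both settings left out the cells with mature genes, which Ccr7 and Igfbp4 helped choose. The loss of their excess follows from that choice. List medians reversed after thinning for CDK inhibitors (-0.069), G1/S factors (-0.014) and apoptosis regulators (-0.031, and -0.015 at 20 CPM). NOTCH genes reached -0.053 at 200 CPM and -0.11 in cells with a Cd8 UMI, T-lineage factors -0.014 with M below 5, and cohesin -0.033 there and -0.0098 with H at least 15. Coreceptors reached 0.018 with H per 10000 UMIs and 0.0025 at 20 CPM, and tubulins -0.053 without the mature cells. Settings on Cd8 UMIs, mature genes and mean level were chosen after seeing the data. The causes were not tested.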
